A study of Mus musculus with 10 samples.

Results

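The genes described here encode the proteins of the cytosolic ribosome, and their messenger RNA was measured in 10 mouse tumours of the bladder line BBN963, 5 from ATM-KO cells and 5 from ATM-WT cells. Members were the genes whose symbol is Rpl or Rps followed by a number, with at most a closing a or x, and whose mean was at least 100 normalized counts over the 10 tumours. The rule found 72 of the 23086 genes in the deposited table, 43 of the large and 29 of the small subunit. The lowest member mean, that of Rps29, was 5976 normalized counts, so no member lay near the minimum and no matching symbol fell below it. All 72 were among the 16517 genes tested.

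Per the labels, both groups are urothelial tumours of BBN963 cells and differ in ATM, the kinase that signals breaks in both DNA strands. Tumours were taken at 500 mm3, when a portion was frozen for bulk RNA sequencing. The labels give neither the lesion made in Atm nor the number of knockout clones, and they do not say that every tumour came from an animal of its own, so the p-values reflect the spread of these 10 samples alone, which may be technical. The deposited columns carry library numbers (A11 to A15 for ATM-KO, A1 to A5 for ATM-WT) that the labels do not. Library totals were 20.2 to 22.3 M (mega) normalized counts. The spacing of low values put the depth roughly at 8.82 M reads for ATM-WT A2 and at 20.6 to 28.3 M for every other library. Genes with a value of 0 numbered 4824 in A2 and 4266 in A4, while the remaining libraries had 2225 to 3602. Atm itself averaged 455 ± 139 in ATM-KO and 485 ± 183 in ATM-WT tumours (SD, n = 5 each). Its log2 fold change was -0.07 ± 0.26 (limma adjusted p = 0.850), so its level did not check the genotype labels.

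A ribosome joins a small subunit, which reads the messenger RNA, to a large subunit, which forms the peptide bond, and each subunit holds many proteins on a ribosomal RNA core. Cells make the proteins in matched amounts, and their messenger RNAs share a pyrimidine tract at the very start (the terminal oligopyrimidine, or TOP, motif) through which mTOR and LARP1 set their translation and stability. Growing and dividing cells spend much of their messenger RNA on these genes.

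RefSeq promoter entries (mouse build GRCm38.p6, from 250 bases before to 50 after each annotated start) were given for 53 of the 72 members, in 63 entries. A tract made of C and at least 4 further C or T, counted from a C within 5 bases of the annotated start on the gene's strand, was found in 28 of the 63 entries (44.4%), against 18.3% of all 32851 entries. Where the whole run of C and T had to begin within those 5 bases, it was found in 22 entries (34.9%), against 15.5% of all entries. The following stretches run from 30 bases before to 25 bases after the start and are shown because the first 4 belong to members that rose most or share a chromosome with them, while the last 3 carry an equally plain tract without a change that passed the test. They are written on the gene's strand, and capitals mark the tract from its first C in that window. The run of C and T goes on before the capitals for 12 bases in Rpl34, 9 in Rpl7a, 4 in Rpl14 and 1 in Rps24.
Rpl15, chr14:18270962-18271016, minus strand: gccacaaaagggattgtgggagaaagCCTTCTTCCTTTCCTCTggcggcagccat
Rpl34, chr3:130730313-130730367, minus strand: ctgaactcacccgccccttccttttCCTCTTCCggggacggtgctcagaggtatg
Rps24, chr14:24490648-24490702, plus strand: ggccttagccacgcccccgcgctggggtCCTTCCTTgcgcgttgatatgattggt
Rps27, chr3:90213624-90213678, minus strand: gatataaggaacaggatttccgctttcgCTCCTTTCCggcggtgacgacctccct
Rpl7a, chr2:26910777-26910831, plus strand: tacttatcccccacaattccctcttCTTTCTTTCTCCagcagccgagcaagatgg
Rpl27a, chr7:109519165-109519219, plus strand: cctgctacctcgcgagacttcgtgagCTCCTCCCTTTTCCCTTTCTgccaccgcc
Rpl14, chr9:120571487-120571541, plus strand: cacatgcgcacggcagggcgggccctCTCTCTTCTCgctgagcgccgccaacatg
The tract was present among members that rose and among members that did not. The 26 members with a tract at 1 or more starts had a median log2 fold change of 0.27, ATM-KO minus ATM-WT, and 7 rose, while the 27 without one had a median of 0.23 and 6 rose. On either strand of the whole window, the letters CCGGAAG (core of the site for ETS factors) stood in 34.9% of the member entries and 8.86% of all entries. The letters AAGATGGC (core of the YY1 site) stood in 11.1% of member entries and 2.75% of all entries, and TATAAA in 7.94% and 13.6%. The last 3 letters of CCGGAAG are the first of AAGATGGC, and CCGGAAG read on the other strand can fall in a tract, so these matches can overlap. Each count describes the letters in this window only.

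Together the 72 genes averaged a larger share of the messenger RNA in ATM-KO tumours, but the difference was smaller than the SD of the ATM-WT tumours, 2 of which reached the ATM-KO values. The summed share of all normalized counts was 6.62%, 6.66%, 7.12%, 7.36% and 8.16% in ATM-KO tumours A11 to A15, against 4.18%, 7.84%, 5.39%, 7.30% and 6.15% in ATM-WT tumours A1 to A5. The ATM-KO tumours lay close together, and the groups overlapped because A2 and A4 stood among the ATM-KO values while A1, A3 and A5 stood below all of them. The means were 7.18% ± 0.629 in ATM-KO and 6.17% ± 1.47 in ATM-WT (SD, n = 5 each), a difference of 1.01 percentage points. Without A2 and A4 the ATM-WT mean was 5.24% ± 0.996 (n = 3) and the difference 1.94 points, and without A1 the difference was 0.514 points. In these bulk samples, fewer cells of a type and less RNA per cell cannot be told apart.

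**Figure D1:**
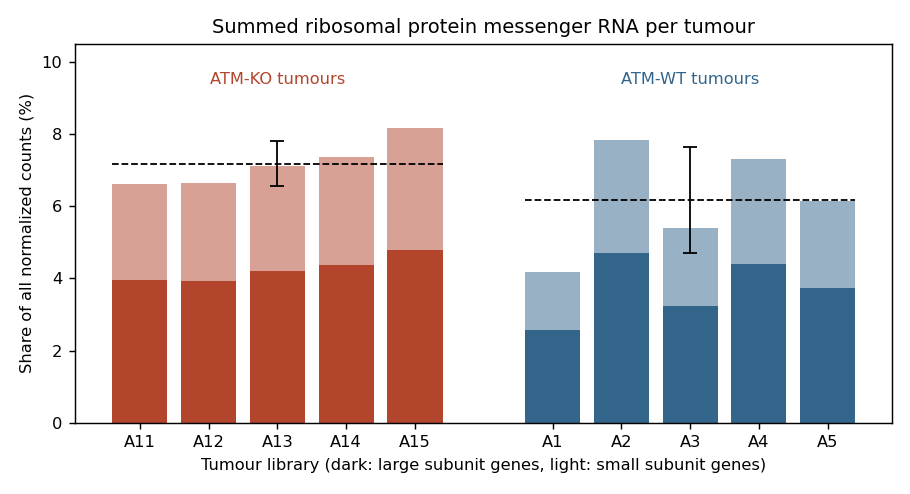
Share of all normalized counts (percent, y axis) held by the 72 ribosomal protein genes in each tumour library (x axis), ATM-KO on the left and ATM-WT on the right. Dark and light parts are the large and small subunit genes, dashed lines the group means and black bars ± SD. ATM-KO tumours span 6.62% to 8.16% and ATM-WT tumours 4.18% to 7.84%.

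The members varied together from tumour to tumour. A1 was the lowest of the 10 tumours for all 72 members. A15 was the highest ATM-KO tumour for 65 members and the highest of all 10 for 43, and A2 was the highest ATM-WT tumour for 67 and the highest of all 10 for 26. The median SD of log2 values over the tumours of a group was 0.159 in ATM-KO and 0.386 in ATM-WT. Once each tumour's mean over the members was subtracted, it was 0.0846 in ATM-KO and 0.107 in ATM-WT, so most of the spread in ATM-WT was common to the members. Between pairs of tumours, Pearson's r over the 72 members (log2 values of genes within a library, which are not independent) was 0.966 to 0.987 within ATM-KO, 0.947 to 0.988 within ATM-WT and 0.869 to 0.942 between the genotypes.

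**Figure D2:**
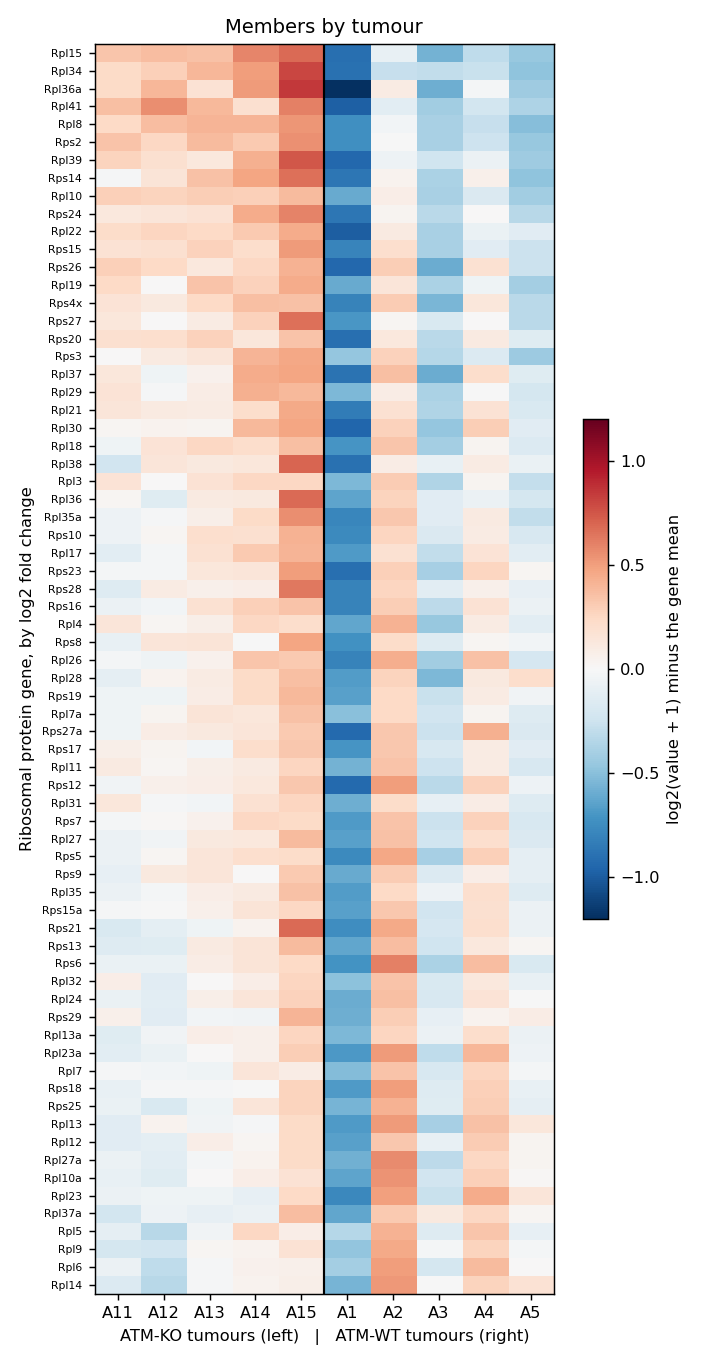
The 70 members reported singly (rows, ordered by log2 fold change) in each tumour (columns, ATM-KO left of the line and ATM-WT right of it), coloured by log2(value + 1) minus the gene's mean over the 10 tumours. Tumour A1 is blue throughout, being the lowest for all of them, and the reds of A2 and A4 lie mainly in the lower rows.

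Within the ATM-WT tumours the ribosomal protein share moved with cell type markers, and the genotypes differed in the same markers. For epithelial markers the direction was not the same. Higher epithelial sums went with a higher share within ATM-WT, but ATM-KO tumours had lower epithelial sums and a higher mean share (7.18% against 6.17%). Summed epithelial markers (12 genes such as Krt5, Epcam and Cdh1) were 2195 to 3843 normalized counts in ATM-KO tumours, against 84669, 234625, 86345, 184904 and 139691 in ATM-WT tumours A1 to A5, where the order of tumours was the same as for their ribosomal protein share. Summed fibroblast markers (8 genes such as Col1a1 and Dcn) were 37139 to 108751 in ATM-KO tumours and 159518 to 577877 in ATM-WT tumours, lowest in A2 and highest in A3, with A1 at 561418. Of the markers tested, 11 of 11 epithelial and 7 of 8 fibroblast genes were lower in ATM-KO, against 24.3% of all genes tested. In the ATM-KO tumours, labelled urothelial, the urothelial marker Upk3a was listed at 0 in every one. Upk2 averaged under 10 normalized counts there, but also over all 10 tumours, and so was not tested. The log2 fold changes of Krt18 (-1.36) and Upk1b (-2.40) were the smallest falls of the 11. Cycling cell markers summed to 21895 to 25819 in ATM-KO and 10008 to 15072 in ATM-WT tumours. All 6 of 6 rose, against 22.1% of all genes tested. Macrophage sums were 41069 to 61599 in ATM-KO and 22651 to 67428 in ATM-WT tumours. Of the 8 markers 1 (Cd68) rose, 12.5% and so below the 22.1% of all genes. T cell markers had 1 of 8 higher (Cd4), also 12.5%. Of the other lists, 2 of 3 B cell markers tested (Cd79a and Blk) and 4 of 5 red cell markers (the alpha and beta globin genes) rose. Of 6 endothelial markers 1 rose (Flt1) and 1 fell (Kdr), each 16.7%. Of 5 muscle markers 0 passed limma's test (0 also at an unadjusted p under 0.05). Without A2 and A4, 1 red cell marker (Hba-a2), 0 T cell and 0 macrophage markers were called higher and 1 macrophage marker (Mrc1) lower. Of all genes 23.5% were then higher and 24.5% lower. The median was 0.056 against 0.63 with all tumours for T cell markers and -0.066 against 0.41 for macrophage markers. T cell sums were 695 to 2050 in ATM-KO and 298 to 1163 in ATM-WT tumours, and red cell sums 650.1 to 1983 in ATM-KO and 517 to 964 in ATM-WT tumours. B cell sums were 436 to 620 in ATM-KO and 47.8 to 145 in ATM-WT tumours, and endothelial sums 2493 to 4205 in ATM-KO and 2256 to 4382 in ATM-WT tumours. Muscle sums were 29.0 to 1070 in ATM-KO and 36.6 to 1728 in ATM-WT tumours. The part of these cells in the ribosomal protein values was not tested.

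Gene by gene, 18 members rose, none by as much as 1 on the log2 scale. With limma on log2(value + 1) and Benjamini-Hochberg adjustment over all 16517 genes, 18 of 72 members (25%) were higher in ATM-KO at an adjusted p below 0.05, against 22.1% of all genes tested. None of the 72 was lower (0 also at an unadjusted p under 0.05, where 22 were higher), against 24.3% of all genes tested. The log2 fold change was positive in 66 members and negative in 6, ran from -0.16 to 0.93 and had a median of 0.25, against 0.0047 over all genes tested. Every ATM-KO value lay above every ATM-WT value for 11 members, against 17.0% of all genes, and below for 0, against 18.2%. Among the 442 other genes at least as abundant as the lowest member, 43.0% were higher and 14.3% lower, with a median of 0.26, a larger share than the members' 25%. Fold changes of single genes are given on the log2 scale with ± SE, positive when higher in ATM-KO. Large subunit genes had 10 of 43 and small subunit genes 8 of 29 calls, with medians of 0.25 and 0.27.

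The count of members that passed depended on ATM-WT tumours A2 and A4. Without A2 and A4, limma called 48 of 72 higher and 0 lower (57 and 0 at an unadjusted p under 0.05), against 23.5% and 24.5% of all genes, all 72 fold changes were positive, and the median was 0.51. All 18 members called with 10 tumours were among the 48, which held 26 large and 22 small subunit genes. A2 was the highest ATM-WT tumour for 67 members and A4 for the other 5. Leaving both out thus took away each member's highest ATM-WT value, which by itself favours higher fold changes and more calls. Without A1 alone the median was 0.11, and without A2 alone it was 0.37 with 27 called. Quantile normalization moved the median of all genes to 0.13 and left 11 of 72 members higher and 2 lower (Rpl5 and Rpl6). Of all 16517 genes tested it called 4434 higher and 3376 lower, so in both directions the members' share was below that of all genes. It gave 47 positive and 25 negative member fold changes and a member median of 0.052, below that of all genes. Of the 18 members, 11 kept their call under all 22 planned settings. Among these, the lower member minimum left the members and the fit unchanged and so could not end a call.

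**Figure D3:**
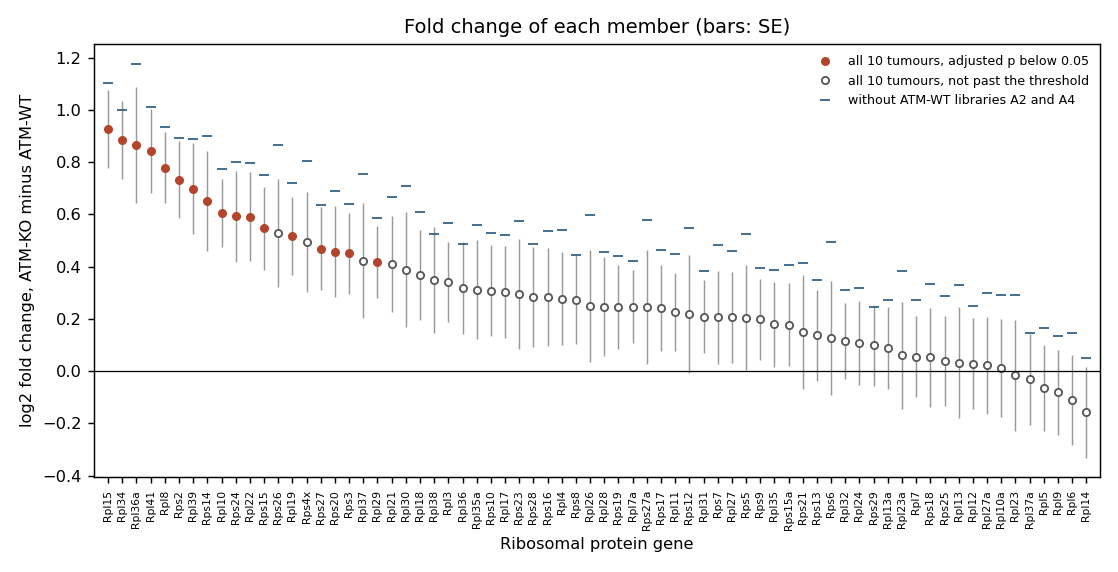
Log2 fold change, ATM-KO minus ATM-WT (y axis), of the 70 members reported singly (x axis, in falling order), with SE bars. Filled points are the 17 of them past an adjusted p of 0.05, open points the others, and dashes the same value without ATM-WT libraries A2 and A4, which lies above 0 for all of them.

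The largest rises among large subunit proteins were those of Rpl15, Rpl34, Rpl36a, Rpl41, Rpl8 and Rpl39. Rpl15 lies in the core of the large subunit and is among the genes mutated in Diamond-Blackfan anaemia, an inherited failure to make red cells. It had 28664, 29429.96, 28902, 34064 and 36344 normalized counts in ATM-KO tumours A11 to A15, against 12164, 21298, 15330.4, 18381 and 16581 in ATM-WT tumours A1 to A5. Every ATM-KO tumour stood above every ATM-WT tumour, with a log2 fold change of 0.93 ± 0.15 (limma adjusted p = 0.000258). Rpl34, another large subunit protein, had 20816, 21759, 23454, 25221 and 30987 normalized counts in ATM-KO tumours A11 to A15, against 9569, 14711, 14544, 14769 and 12699 in ATM-WT tumours A1 to A5. Its groups did not overlap either, A15 was the highest and A1 the lowest, and the log2 fold change was 0.89 ± 0.15 (limma adjusted p = 0.000377).

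Rpl36a, encoded on the X chromosome, had 12521, 14113, 12036, 15263 and 19183 normalized counts in ATM-KO tumours A11 to A15, against 4571, 11401, 7118, 10499.9 and 7953 in ATM-WT tumours A1 to A5. The lowest ATM-KO tumour was only just above A2, and the log2 fold change was 0.87 ± 0.22 (limma adjusted p = 0.00672). Rpl41, the shortest ribosomal protein, sits in a bridge between the subunits. It had 37159, 42844, 38072, 33155 and 44257 normalized counts in ATM-KO tumours A11 to A15, against 14679.6, 26651, 21736, 24959.6 and 22455 in ATM-WT tumours A1 to A5. A12 and A15 were the highest, no value overlapped, and the log2 fold change was 0.84 ± 0.16 (limma adjusted p = 0.000950).

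Rpl8 lies beside the site where the peptide bond is made. It had 34389.8, 37687, 38821, 38757 and 42143 normalized counts in ATM-KO tumours A11 to A15, against 17564, 28653, 22309, 24079.95 and 20447 in ATM-WT tumours A1 to A5. The ATM-KO tumours were even and all above A2, the highest ATM-WT tumour, with a log2 fold change of 0.78 ± 0.14 (limma adjusted p = 0.000483). Rpl39 lines the tunnel through which the new protein leaves. It had 14841, 14169.6, 13462, 16616 and 20668 normalized counts in ATM-KO tumours A11 to A15, against 6418, 11821, 10464, 11789.9 and 9201 in ATM-WT tumours A1 to A5. Its groups did not overlap and the log2 fold change was 0.70 ± 0.17 (limma adjusted p = 0.00559).

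Rpl10, which joins the large subunit late in its assembly and touches the transfer RNA site, was among the members with the smallest spread. It had 35471, 34912, 35557, 35489.8 and 37709 normalized counts in ATM-KO tumours A11 to A15, against 19112, 30678, 22191, 25709 and 21683 in ATM-WT tumours A1 to A5. ATM-KO tumours A11 to A14 were nearly equal and A15 stood apart above them, no value overlapped, and the log2 fold change was 0.60 ± 0.13 (limma adjusted p = 0.00218). Rpl22, an RNA-binding protein that ribosomes can do without and that is often mutated in tumours of people, averaged 12064 ± 782 in ATM-KO and 8249.7 ± 2145 in ATM-WT tumours (SD, n = 5 each), with a log2 fold change of 0.59 ± 0.17 and no overlap (limma adjusted p = 0.0132). Rpl29 had 13882, 12223, 13157, 16609.6 and 16217 normalized counts in ATM-KO tumours A11 to A15, against 8513, 13147, 9502, 12379 and 10681 in ATM-WT tumours A1 to A5. A12 lay below A2 and A4, so its groups overlapped, and its log2 fold change of 0.42 ± 0.14 (limma adjusted p = 0.0248) lost its call under quantile normalization and without A3, A14 or A15 (adjusted p 0.13, 0.052, 0.067 and 0.065, within 0.0026 to 0.13 over its alternatives). Rpl19 was the remaining large subunit gene that rose (0.52 ± 0.15), and it did not pass after quantile normalization.

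In the small subunit, Rps2 and Rps14 moved most. Rps2 sits near the channel by which the messenger RNA enters. It had 66839, 62692, 68537, 65561 and 77195 normalized counts in ATM-KO tumours A11 to A15, against 31593, 52572, 40243, 44324 and 38563 in ATM-WT tumours A1 to A5. All ATM-KO tumours were above all ATM-WT tumours, with a log2 fold change of 0.73 ± 0.15 (limma adjusted p = 0.00137). Rps14, whose loss of a copy underlies the anaemia of a human bone marrow disorder, had 32248, 36246, 41579, 45139.6 and 51274 normalized counts in ATM-KO tumours A11 to A15, against 17814, 33547, 25024, 33858 and 23300.5 in ATM-WT tumours A1 to A5. A11 lay below A2 and A4, so the groups overlapped, and the log2 fold change was 0.65 ± 0.19 (limma adjusted p = 0.0142).

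A further 6 small subunit genes rose by less, and 5 of them are described here. Rps24, mutated in some families with Diamond-Blackfan anaemia, changed by 0.59 ± 0.17 without overlap (limma adjusted p = 0.0139), and of the planned settings quantile normalization alone ended its call. Rps15, which helps export the young small subunit from the nucleus, changed by 0.55 ± 0.16 and kept its call in all 22 planned settings. Rps27 (0.47 ± 0.16), Rps20 (0.46 ± 0.18) and Rps3 (0.45 ± 0.16), a protein that also takes part in DNA repair, were near the threshold. Their calls ended in 6, 13 and 6 of the 22 settings, in each case including quantile normalization and leaving out A1, A5, A14 or A15. Leaving out A3 also ended the calls of Rps20 and Rps3, and leaving out A11, A12 or A13 that of Rps20.

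Neither Rpl5 nor Rpl11, which bind MDM2 when ribosome assembly fails and so stabilize p53, passed the test. Rpl5 had 24501, 20852, 25518, 31272 and 27772 normalized counts in ATM-KO tumours A11 to A15, against 20787, 35195, 23690.4, 33234 and 24613 in ATM-WT tumours A1 to A5. The groups overlapped widely, and the log2 fold change was -0.06 ± 0.17 (95% interval -0.43 to 0.30, limma adjusted p = 0.773). Rpl11 averaged 15365 ± 977 in ATM-KO and 13409 ± 3223 in ATM-WT tumours with a log2 fold change of 0.23 ± 0.15 (limma adjusted p = 0.235). It passed without A2 (adjusted p 0.042) and without A2 and A4 (0.0051), within 0.0051 to 0.77 over its alternatives.

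Rps6, the substrate of the S6 kinases, had 22779.7, 22749, 25679, 26801 and 28425 normalized counts in ATM-KO tumours A11 to A15, against 14635, 36666, 18491, 31068 and 21186 in ATM-WT tumours A1 to A5. A2 was the highest and A1 the lowest of all 10, the ATM-KO tumours lay between them, and the log2 fold change was 0.13 ± 0.22 (95% interval -0.35 to 0.60, limma adjusted p = 0.663). Rps19, the gene most often mutated in Diamond-Blackfan anaemia, averaged 12558 ± 1694 in ATM-KO and 10749 ± 2432 in ATM-WT tumours, with a log2 fold change of 0.25 ± 0.16 (limma adjusted p = 0.231). Rpl3, which lies at the peptide bond site, averaged 28752 ± 1934 in ATM-KO and 23184 ± 5635 in ATM-WT tumours, with 0.34 ± 0.15 (limma adjusted p = 0.0874). Its change passed without A2, without A2 and A4, and with sample weights.

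Rps4x and Rps26 lay just short of the threshold. Rps4x, on the X chromosome, had 32519, 31624, 34407, 37262 and 37078 normalized counts in ATM-KO tumours A11 to A15, against 16666, 35852, 19855, 31953 and 23196 in ATM-WT tumours A1 to A5. A2 and A4 reached the ATM-KO range, and the log2 fold change was 0.49 ± 0.19 (limma adjusted p = 0.0512). It passed without A2, without A4 and under 5 further alternatives. Rps26, whose protein touches the messenger RNA as it leaves the ribosome, was not on the list of genes to name and is given because of its value (0.53 ± 0.21, limma adjusted p = 0.0532).

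The members with the widest spread were Rps12, Rps6 and Rps27a, all in ATM-WT tumours. Rps12 had 30781, 32940.3, 33509.96, 34516 and 39552 normalized counts in ATM-KO tumours A11 to A15, against 16572, 44915, 25274, 38363 and 30303 in ATM-WT tumours A1 to A5. A2 was above every ATM-KO tumour and A1 below all, and the log2 fold change was 0.22 ± 0.23 (limma adjusted p = 0.459). Rps27a, made as a fusion with ubiquitin, averaged 25086 ± 2319 in ATM-KO and 22247 ± 7651 in ATM-WT tumours, with 0.25 ± 0.22 (limma adjusted p = 0.381). Rpl13 and Rpl13a, a protein that can also leave the ribosome to silence inflammatory messages, were named for their high normalized counts. Rpl13 averaged 43227 ± 4164 in ATM-KO and 44148 ± 14469.6 in ATM-WT tumours, and Rpl13a 37445 ± 3929.6 in ATM-KO and 35751 ± 7290.2 in ATM-WT tumours. Their log2 fold changes were 0.03 ± 0.21 and 0.09 ± 0.16 (limma adjusted p = 0.915 and 0.678).

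Within the pool of ribosomal protein messages, some members held a larger and others a smaller part in ATM-KO tumours. Scaling each tumour to the same total over the 72 members, an alternative chosen after seeing the data, moved the median of all genes to -0.31 (log2), so a value on it is relative to the pool and not to all genes. On that scale 8 members were higher, against 6.96% of all genes tested, and 6 were lower, against 28.6%. Every ATM-KO value lay above every ATM-WT value for 10 members, against 4.63% of all genes, and below for 16, against 22.5%. The 8 were Rpl15, Rpl34, Rpl36a, Rpl41, Rpl8, Rps2, Rpl39 and Rps14. The 6 were Rpl14, Rpl6, Rpl9, Rpl5, Rpl37a and Rpl10a, all of the large subunit.

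In ‰ of the pool (its summed normalized counts), Rpl15 held 20.04‰ ± 0.81 in ATM-KO and 13.10‰ ± 0.85 in ATM-WT tumours (SD, n = 5 each). Rpl41 held 25.03‰ ± 3.24 in ATM-KO and 17.25‰ ± 1.38 in ATM-WT tumours, and Rps2 43.51‰ ± 2.28 in ATM-KO and 32.61‰ ± 3.35 in ATM-WT tumours. In the other direction, Rpl14 held 7.55‰ ± 0.52 in ATM-KO and 10.46‰ ± 0.65 in ATM-WT tumours. Rpl5 held 16.55‰ ± 1.91 in ATM-KO and 21.45‰ ± 1.69 in ATM-WT tumours, and Rpl6 17.54‰ ± 1.35 in ATM-KO and 23.52‰ ± 1.27 in ATM-WT tumours. On the authors' scale none of the 6 members that were lower within the pool passed the test. Rpl14 had 11145, 9914, 12325, 12797 and 13064 normalized counts in ATM-KO tumours A11 to A15, against 8457, 17819.8, 12419, 15010.4 and 13999 in ATM-WT tumours A1 to A5, and its groups overlapped, with a log2 fold change of -0.16 ± 0.17 (limma adjusted p = 0.484). The ratio of summed large to summed small subunit counts was 1.417 to 1.478 in ATM-KO tumours (mean 1.45 ± 0.0237) and 1.499 to 1.581 in ATM-WT tumours (1.53 ± 0.0358), without overlap. Rps2, the member with the highest mean, weighs on the small subunit sum, and the ratio without it was not computed. After scaling to the pool, the median log2 fold change was -0.066 for large and -0.041 for small subunit genes.

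**Figure D4:**
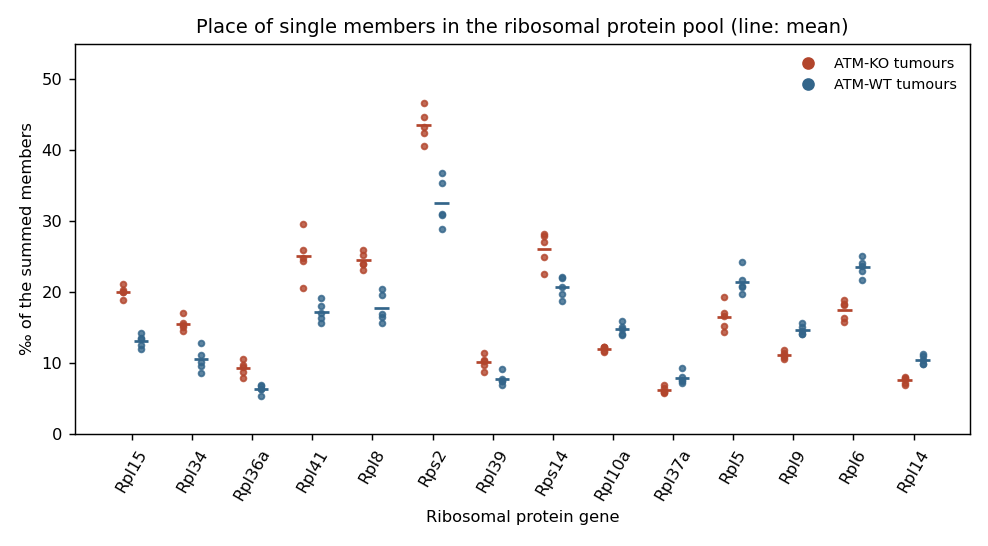
Normalized counts of single members in ‰ of the summed 72 members (y axis) in each tumour, ATM-KO left and ATM-WT right for each gene, with a line at the group mean. The first 8 genes were higher and the last 6 lower in ATM-KO after scaling to the pool, as for Rpl15 with a mean of 20.04‰ in ATM-KO and 13.10‰ in ATM-WT.

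Members on chromosomes whose other genes were higher in ATM-KO tended to have higher fold changes. Over the 72 members, the log2 fold change of a member and the median log2 fold change of the other genes (mean of at least 100) on its chromosome had a Pearson's r of 0.66 and a Spearman's rho of 0.59, a description across genes that share chromosomes and tumours. Without the X chromosome r was 0.61 and rho 0.52 (68 members), and without A2 and A4 r was 0.70 and rho 0.66. The X chromosome carried 4 members, Rpl10, Rps4x, Rpl36a and Rpl39, of which 3 rose, with a median of 0.65. Its 359 other genes had a median of 0.48, and 54.6% of them were higher. Chromosome 14 held Rpl15 and Rps24 (median 0.76, other genes 0.31), and chromosome 3 held Rpl34 and Rps27 (0.68, other genes 0.31). Chromosome 5 held Rpl6, Rpl9, Rpl5 and Rpl21 (median -0.073, other genes -0.14), of which the first 3 were among the 6 that lost ground within the pool.

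Split at a median of 0.15, a value chosen after seeing the data, the 7 chromosomes above it (3, 4, 10, 14, 15, 19 and X) held 21 members, of which 12 rose (57.1%, against 40.3% of their 3518 other genes), with a median of 0.53. The other 13 autosomes held 51 members, of which 6 rose (11.8%, against 21.3% of their 8099 other genes), with a median of 0.21. DNA copy number was not analysed here. On every chromosome with members, their median lay above that of the other genes, which were not matched to the members in abundance. Among all genes tested, the 442 other genes at least as abundant as the lowest member had a median of 0.26, against 0.25 for members. A comparison matched for abundance within chromosomes was not made. Single members far above the median of the other genes on their chromosome included Rps2 on chromosome 17, with 0.73 ± 0.15 beside 0.020. Others were Rpl19 on chromosome 11, with 0.52 beside -0.048, and Rpl32 on chromosome 6, with 0.12 ± 0.15 beside -0.34.

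**Figure D5:**
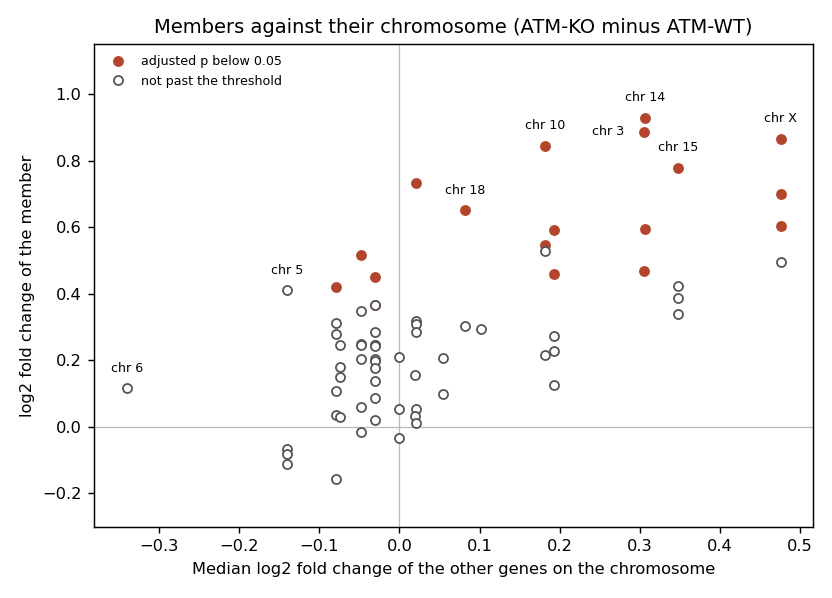
Log2 fold change of each member (y axis) against the median log2 fold change of the other genes with a mean of at least 100 on the same chromosome (x axis), both ATM-KO minus ATM-WT. Filled points passed an adjusted p of 0.05, and some chromosomes are named above their highest member. Points rise to the right, with Pearson's r of 0.66 over the 72 members.

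Listed cytosolic ribosomal proteins with symbols outside the rule did not pass with all 10 tumours. Of the stalk proteins Rplp0, Rplp1 and Rplp2, Fau, made as a fusion with a relative of ubiquitin, the small subunit protein Rpsa and the scaffold Rack1, 0 of 6 passed limma's test in either direction (0 also at an unadjusted p under 0.05), and the median was 0.18. Their log2 fold changes were 0.04 ± 0.17, 0.14 ± 0.20, 0.50 ± 0.25, 0.26 ± 0.15, -0.24 ± 0.16 and 0.22 ± 0.22 in that order. Without A2 and A4, 4 of the 6 rose, all but Rplp0 and Rpsa. Rplp2 also passed without A2 alone. Rpsa, which doubles as the laminin receptor precursor, had 29439, 29058, 33618, 35188 and 36216 normalized counts in ATM-KO tumours A11 to A15, against 26173, 48554, 38476, 43951 and 39730.3 in ATM-WT tumours A1 to A5. Its values overlapped, and it was called lower without A1 (adjusted p 0.020) and after quantile normalization (0.013), within 0.013 to 0.73 over its alternatives. Rps3a1, a small subunit gene looked up after the lists were made, averaged 40646 ± 4087 in ATM-KO and 28389 ± 7564 in ATM-WT tumours and had a log2 fold change of 0.56 ± 0.18 (limma adjusted p = 0.0245). Its groups overlapped, and its call was lost without A12, A13 or A15 singly (adjusted p up to 0.0587).

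Among the paralogues, genes that resemble a member but are expressed at lower or restricted levels, 8 were tested and 2 rose (25%, against 22.1% of all genes). Rps27l, the counterpart of Rps27 and a known target of p53 in human cells, had 4308, 4506, 4475, 5707 and 5953 normalized counts in ATM-KO tumours A11 to A15, against 1816, 2572, 2689, 2218 and 2234 in ATM-WT tumours A1 to A5. Every ATM-KO tumour was well above every ATM-WT tumour, with a log2 fold change of 1.11 ± 0.13 (limma adjusted p = 2.45e-05), and A2 and A4 did not stand apart. Rps27rt, with 0.53 ± 0.20 (limma adjusted p = 0.0449), lost its call without A1, A3, A5, A11, A13, A14 or A15 singly. Rpl22l1, which Rpl22 is known to repress, averaged 1941 ± 275 in ATM-KO and 2394 ± 457 in ATM-WT tumours, with -0.29 ± 0.15 (limma adjusted p = 0.126), and was called lower without A1 (adjusted p 0.011, within 0.011 to 0.43 over its alternatives). Rpl7l1 (0.19 ± 0.11), Rpl36al (0.13 ± 0.16), Rpl39l (-0.59 ± 0.62), Rps4l (-0.39 ± 0.30) and Rpl9-ps6 (-0.03 ± 0.21) did not pass, and Rpl7l1 passed without A2 and A4.

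Ribosomal protein genes have many near-identical processed copies, and reads could have been split among them. The table held 120 pseudogene symbols of members or of Rplp0, Rplp2 or Rpsa, and those of members summed to 0.512% of the member total. For the 46 members with at least 1 such copy the copies held a median of 0.256% of the member's counts, and Rps15a, with 25.4%, and Rpl19, with 4.70%, were the highest. Of 58 pseudogenes tested, 4 rose (6.90%, against 22.1% of all genes), Rpl10-ps3, Rps2-ps10, Rpl15-ps3 and Rpl36a-ps1, each a copy of a member that rose, and 0 fell (8 higher and 0 lower at an unadjusted p under 0.05, limma). Their counts are uncertain for the reason just given.

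Of 43 ribosome assembly factors tested, 21 were higher (48.8%, against 22.1% of all genes), with a median log2 fold change of 0.41. Another 3 were lower (Nob1, Imp3 and Sbds, named after their values were seen), against 24.3% of all genes. Without A2 and A4 limma called 34 higher and 0 lower (35 and 0 at an unadjusted p under 0.05), against 23.5% and 24.5% of all genes. Ebna1bp2 had 2935, 2989, 2949, 3244 and 2664 normalized counts in ATM-KO tumours A11 to A15, against 1261, 1523, 1272, 1450.1 and 1264 in ATM-WT tumours A1 to A5. The groups lay far apart and the log2 fold change was 1.13 ± 0.09 (limma adjusted p = 1.47e-06). Rrp9, which acts in cutting the ribosomal RNA precursor, changed by 1.16 ± 0.10, and Bop1, needed for the large subunit, by 1.06 ± 0.12. RNA polymerase I, which makes that precursor, had 2 of 14 genes higher (14.3%, against 22.1% of all genes) and 3 lower (against 24.3%), with a median of 0.17. Without A2 and A4, 7 were higher and 2 lower, against 23.5% and 24.5% of all genes. Its subunit Polr1e rose by 1.16 ± 0.13 and its factor Ubtf, named after its value was seen, by 0.21. The promoter factors Taf1c (-0.80 ± 0.20) and Taf1d (-0.72 ± 0.23) and the termination factor Ttf1 (-0.56, named likewise) fell, and the fall of Taf1d was not called without A4, A5 or A12, or without A2 and A4.

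The other listed messages known to carry TOP tracts, among them elongation and initiation factors, had 5 of 14 higher (35.7%, against 22.1% of all genes) and 1 lower (against 24.3%), with a median of 0.34. Without A2 and A4, 12 were higher and 1 lower, against 23.5% and 24.5% of all genes. Beside the 3 described next, Eef2 (0.39) and Eif3h (0.48) rose and Eif3f (-0.46) fell, named after their values were seen. Eif4b, which helps the helicase eIF4A at the start of messages, had 11405, 11209, 10963, 11948 and 11548 normalized counts in ATM-KO tumours A11 to A15, against 7025, 8403, 7257, 8131 and 7595 in ATM-WT tumours A1 to A5. No value overlapped, and the log2 fold change was 0.57 ± 0.08 (limma adjusted p = 0.000128). Hnrnpa1 changed by 0.52 ± 0.09 and Eef1d, part of the exchange factor of eEF1A, by 0.59 ± 0.11. Initiation factors had 15 of 30 higher, against 22.1% of all genes, with a median of 0.28. A single factor was lower (Eif4g3, -0.89, named after its value was seen), against 24.3% of all genes. With A2 and A4 left out, 21 were higher and 1 lower, against 23.5% and 24.5%. By p the first were Eif3d (0.95 ± 0.09), Eif3b (1.00 ± 0.10) and Eif2b4 (0.99 ± 0.11).

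Regulators of TOP messages had 4 of 15 higher (26.7%, close to the 22.1% of all genes) and 2 lower (against 24.3%), with a median of -0.017. When A2 and A4 were left out, 6 were higher and 2 lower (against 23.5% and 24.5% of all genes), and the median was 0.070. Larp4, which binds messages at the poly(A) tail, had 4521, 4562, 3868, 4635 and 4165 normalized counts in ATM-KO tumours A11 to A15, against 1994, 1711, 2017, 1758 and 1659 in ATM-WT tumours A1 to A5. Its groups were far apart, with a log2 fold change of 1.25 ± 0.09 (limma adjusted p = 6.99e-07). Eif4ebp1, the brake on cap binding that mTOR releases, changed by 0.95 ± 0.09, and Mtor by 0.90 ± 0.13. The other calls, named after their values were seen, were a rise of Eif4ebp2 (0.53) and falls of Rheb, the activator of mTOR (-0.39), and Rps6kb2, an S6 kinase (-0.80). Ribosome quality control genes had 2 of 15 higher (13.3%, against 22.1% of all genes) and 1 lower (against 24.3%), with a median of -0.051. Leaving out A2 and A4 gave 4 higher and 1 lower (against 23.5% and 24.5% of all genes), with a median of 0.023. Ascc3, a helicase that splits stalled ribosomes, rose by 0.85 ± 0.11 and Gtpbp1 by 0.37 ± 0.11, while Map3k20, the kinase ZAK that senses collided ribosomes, fell (-0.36 ± 0.10). The call of Gtpbp1 was lost without A2 and A4.

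The mitochondrial ribosome, encoded in the nucleus by a separate set of genes, had 36 of 77 genes higher (46.8%, against 22.1% of all genes), with a median of 0.30. Another 3 were lower (Mrpl23, Mrpl24 and Mrps17, named after their values were seen), against 24.3% of all genes. Without A2 and A4, 40 were higher and 2 lower, against 23.5% and 24.5% of all genes. Mrpl20 had 2397, 2916, 2832, 2719.6 and 3216 normalized counts in ATM-KO tumours A11 to A15, against 972, 1172, 1388, 987 and 1226 in ATM-WT tumours A1 to A5. A1 to A5 were all below the lowest ATM-KO tumour, and the log2 fold change was 1.30 ± 0.12 (limma adjusted p = 3.58e-06). Mrps11 changed by 1.05 ± 0.11 and Mrps28 by 1.17 ± 0.15.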

How the data were processed

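RNA of 10 tumours was sequenced, 5 per genotype. The values deposited by the authors are normalized counts (a signal at or above 0) of 23086 gene symbols in a single table. STAR, Salmon and DESeq2 were used, per the submitters' processing notes, while for versions, roles, build and annotation the sources used here give nothing. Only 58.1% to 68.8% of low values lay within 0.05 of a whole multiple of 1 read's estimated worth, so a count test on recovered reads was not run. Altered symbols (404) were restored.

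Genes with a mean of at least 10 were tested on log2(value + 1), which understates changes of low genes, with limma 3.58.1 in R 4.3.3 (eBayes with trend, Benjamini-Hochberg adjustment, threshold 0.05). The procedure was tested on simulated data. Chromosomes came from GENCODE for all 72 members. Python 3.11.15, numpy 2.4.6, pandas 2.3.3 and matplotlib 3.10.9 were used.

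Members and gene lists were chosen with earlier results of these data known. Named members were the 8 largest called rises and falls, the 4 highest means, the 3 largest and 3 smallest spreads, and genes picked for their role, and of each other list up to 3 genes with the smallest p, or all for paralogues and ribosomal proteins outside the rule. A few of these genes are not reported here singly, and members among them stay in the counts over all members. Alternatives changed the pseudocount, filter, scaling, eBayes settings, weights, member minimum and libraries.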

Additional observations from a re-analysis of the deposited data

Results flagged for a closer look

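Each group of 5 tumours was searched for a value far from the rest, for the 70 members reported singly, the other named genes and the ribosomal protein share. Of 216 such groups 13 held one, where chance gives about 1 in 20, and these genes share tumours and are not independent. In 10 of the 13 the tumour was ATM-KO A15, at the high end. Among the large subunit and stalk genes it had 37709 normalized counts of Rpl10, 12652 of Rpl37a, 16878 of Rpl36, 17876 of Rpl23 and 42245 of Rplp1. Among the small subunit genes it had 26915 of Rps18, 22518 of Rps21, 20045 of Rps23, 22693 of Rps15 and 14217 of Rps28. The gap between A15 and its nearest neighbour was 0.721 to 0.855 of the group's range. The remaining values were Rpl38 in ATM-WT tumour A1, low at 4887, Eif4ebp1 in ATM-KO tumour A14, high at 3345, and Mrps28 in ATM-WT tumour A3, high at 693. Without A15 the member median was 0.19 and 13 members were higher.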

How the results depend on the processing

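No paired analysis was possible because the deposited columns carry library numbers that the sample labels do not give, so the labels' replicate numbers could not be tied to columns. With all 10 tumours 18 members were higher and 0 lower by limma. Quantile normalization gave 11 higher and 2 lower, against 4434 and 3376 of all 16517 genes tested, and the cause was not tested. Without both A2 and A4 of ATM-WT, 48 were higher. Scaling to the ribosomal protein total, added after seeing the data, gave 8 higher and 6 lower, since that scale removes the change common to the members. Leaving out 1 tumour gave 13 to 27 members higher, 0 lower, a median of 0.11 to 0.37 and a difference in share of 0.514 to 1.43 percentage points. The other planned settings gave 15 to 25 members higher and 0 lower. No named gene that was called reversed its direction under any alternative. Library A2 rests on the fewest reads, which limits low genes more than these abundant members.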
